A study of Arabidopsis thaliana with 10 samples.

Results

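Leaf gene expression on day 12 was compared with that on day 8, both inside a cool bright growth regime, in Arabidopsis thaliana of the accession Columbia. The comparison rests on 4 of the 10 arrays of the series, 1 array for each of 2 lines on each of the 2 days, chosen by the line and day that the labels give and not by any measured value. One line carried a 35S:PAP1 transgene, in which PAP1, a MYB regulator of the anthocyanin pathway, is driven throughout the plant by a promoter taken from a virus. The other line carried an empty vector and was read from the label Hex. Leaves of the transgenic line were red at the start, per the series text, and faded to green in warm dim growth. The labels do not state the regime of an array. The series text places 22 °C and 440 µmol m-2 s-1 first (read here as day 1), then 6 days of 30 °C by day and 150 µmol m-2 s-1 (read as days 2 and 7), and last 15 °C and 440 µmol m-2 s-1 (read as days 8 and 12). All 4 arrays share the bright light, the 15 °C and the warm dim days before them. Between the 2 days, time spent at 15 °C and plant age changed together and cannot be told apart. Each array was made from pooled frozen leaf tissue, and no label names separate plants or cultures. The 2 lines, which differ in genotype, therefore stand in as the replicates of a day. The p-values reflect how the gap between the lines varied over the days. That variation may be technical, and it also holds any transgene effect that varies by day.

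Cold and bright light together leave a leaf with more absorbed energy than its slowed metabolism can use. Leaves are known to answer within a day with cold-regulated protective proteins, flavonoid sunscreens and less light-harvesting antenna. Over the following days the response is known to settle, as sugars, the protein-making apparatus and the photosynthetic machinery adjust to the lower temperature. Autophagy, the enclosure of cell contents in vesicles coated with ATG8 proteins for breakdown in the vacuole, and the pathways that burn amino acids in place of sugar are held down when carbon is plentiful. Long cold is also known to raise pathogen defence genes in Arabidopsis leaves.

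The values are log2 expression levels of probe sets, and 1 unit is a doubling. Of the 22746 probe sets tested on each array, 13513 name 1 gene, for 13350 genes in all. The 4 arrays resembled each other in most of their controls. An exception was the difference between the 5′ and 3′ GAPDH probe sets. It was -0.2 in the empty vector line on day 12 and between 0.2 and 0.3 on the rest of these arrays. The difference between the 5′ and 3′ actin probe sets lay between -1.4 and -1.2, the 25S rRNA probe set between 4.7 and 5.6 and the hybridisation controls between 8.85 and 9.05. Among the other arrays, that of 35S:PAP1 on day 2 stood apart, with an actin difference of -2.5 and a 25S rRNA level of 9.7, and it enters the estimate of spread. Both day 7 arrays stood apart in the median of the poly-A controls. It was 3.4 in the empty vector line and 3.35 in 35S:PAP1, against 4.45 to 5.35 on the arrays of all other days. Day 7 serves below as the base for placing the changes in time. Of 3 leaf mesophyll markers measured, RCA, the activase of the carbon-fixing enzyme, lay between 13.6 and 13.7 on all 4 arrays, while the antenna genes LHCB4.1 and LHCB4.2 rose. The 4 root and seed markers PYK10, EXPA7, EXPA18 and BAN lay between 3.3 and 4.3 on these arrays, changed by a median of -0.03 log2 units, and 0 of them were called. FAMA, a guard cell lineage factor listed as FMA, fell by 0.75 ± 0.14 (SE, limma, adjusted p = 0.00911, up to 0.0878 without 1 array), while TRY of trichomes changed by -0.25 and CLV3 of meristems by -0.15, neither of them called. In pooled tissue, fewer cells of a type and less RNA per cell cannot be told apart. The highest level of EXPA7, EXPA18 and BAN on any array, 4.1, serves as a limit for dim values, and a fold given as "at least" has values under it raised to it.

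A probe set was called when the Benjamini-Hochberg adjusted p of the day 12 minus day 8 difference was below 0.05 in limma, with line and day as terms and all 10 arrays giving the spread. By this rule 4586 probe sets were called, which is 20.2% of those tested. On day 12, 2438 were higher (10.7% of those tested) and 2148 were lower (9.44%), and all of them moved the same way in both lines. The median change of all probe sets was -0.05. Counts of called members in the gene groups below are to be read against these shares of 10.7% higher and 9.44% lower. The median size was 1.0 log2 units among those called higher and 0.9 among those called lower, and 1231 and 973 moved by at least 1 unit. The count rested on both lines. It was 1429 without the empty vector array of day 8, 1483 without that of day 12, 1730 without the 35S:PAP1 array of day 12 and 2801 without that of day 8. Whichever 1 of the 10 arrays was left out, 655 of the calls higher (26.9%) and 446 of the calls lower (20.8%) remained. For each day before day 8, leaving out either of its arrays gave the same fit, since the other was then alone on its day. A count of arrays left out in turn is therefore not a count of separate fits. For a named call that was lost on leaving out an array, the highest adjusted p over the arrays left out is given as "up to". With only the 4 arrays of days 8 and 12, 1 residual degree of freedom is left, and limma called 0 probe sets, with 6022 at an unadjusted p under 0.05.

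**Figure D1:**
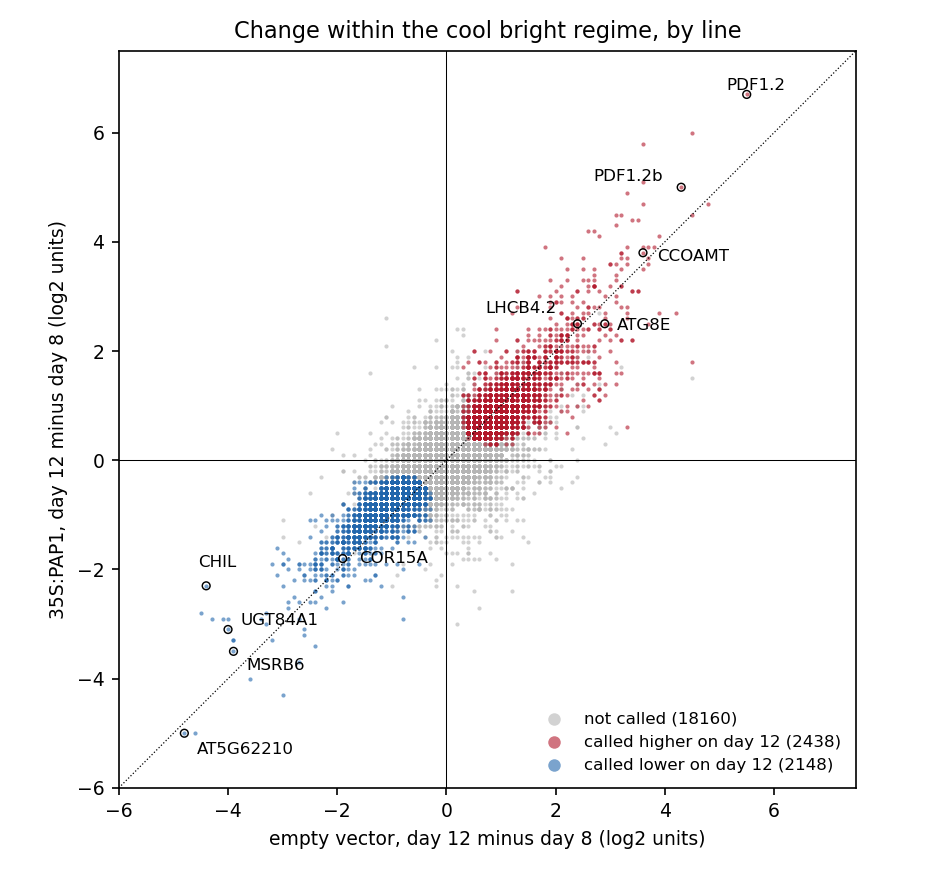
Each point is 1 of 22746 probe sets, with the day 12 minus day 8 change in the empty vector line on the x axis and in the 35S:PAP1 line on the y axis, both in log2 units. Red points were called higher on day 12 (2438), blue points were called lower (2148), grey points were not called, circles mark named genes and the dotted line marks equal change in both lines.

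The lines changed much alike. Across probe sets, which are not independent replicates, the change in one line correlated with that in the other at 0.807 (Pearson). The SD of the change was 0.702 in the empty vector line and 0.633 in 35S:PAP1, and 3197 and 2413 probe sets changed by at least 1 unit. A test of the difference between the lines' changes, with the per-day differences of days 1, 2 and 7 as its spread, called 0 of 22746 probe sets (0.0%) in limma, with 490 at an unadjusted p under 0.05. That spread holds any transgene effect that differed among days 1, 2 and 7, and the test had 2 residual degrees of freedom. A difference between the lines could therefore be missed.

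The day 7 arrays, the last before the move to the cool bright regime, place these changes in time. A called probe set was described as transiently high when day 8 lay at least 1 unit above day 7 in both lines, and as transiently low when day 8 lay at least 1 unit below. It was described as building up when day 8 was not below day 7 in either line and day 12 was at least 1 unit above day 7 in both, and as falling throughout in the mirror case. These counts are descriptions, with no test, because the steps share the day 8 arrays and an error on those arrays enters both. Of the 2148 probe sets called lower, 597 (27.8%) were transiently high and 79 (3.68%) fell throughout. Of the 2438 called higher, 525 (21.5%) were transiently low and 232 (9.52%) built up. Centring every array on its own median gave 828 transiently high and 347 transiently low. The remaining 1472 lower and 1681 higher took steps too small or too unequal for these classes.

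On day 12 the transient classes lay near day 1 about as often as all called probe sets did. Of the 597 transiently high probe sets, 522 (87.4%) were within 1 unit of day 1 in both lines, as were 1898 of all 2148 called lower. Their medians in the empty vector line were 6.7, 8.7 and 7.2 on days 7, 8 and 12, against 7.4 on day 1, and in 35S:PAP1 they were 7.2, 8.6 and 7.4, against 7.5. Of the 525 transiently low probe sets, 427 (81.3%) lay within 1 unit of day 1, as did 1890 of all 2438 called higher, and their medians were 8.5, 6.5 and 8.0 on days 7, 8 and 12 in the empty vector line. In the class that built up, 215 of 232 were above day 1 in both lines on day 12, and 83 were at least 1 unit above. Its medians in the empty vector line were 6.7, 5.45, 6.3 and 8.0 on days 1, 7, 8 and 12. In each class the direction of the steps from day 7 to day 8 and from day 8 to day 12 follows from the class rule.

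**Figure D2:**
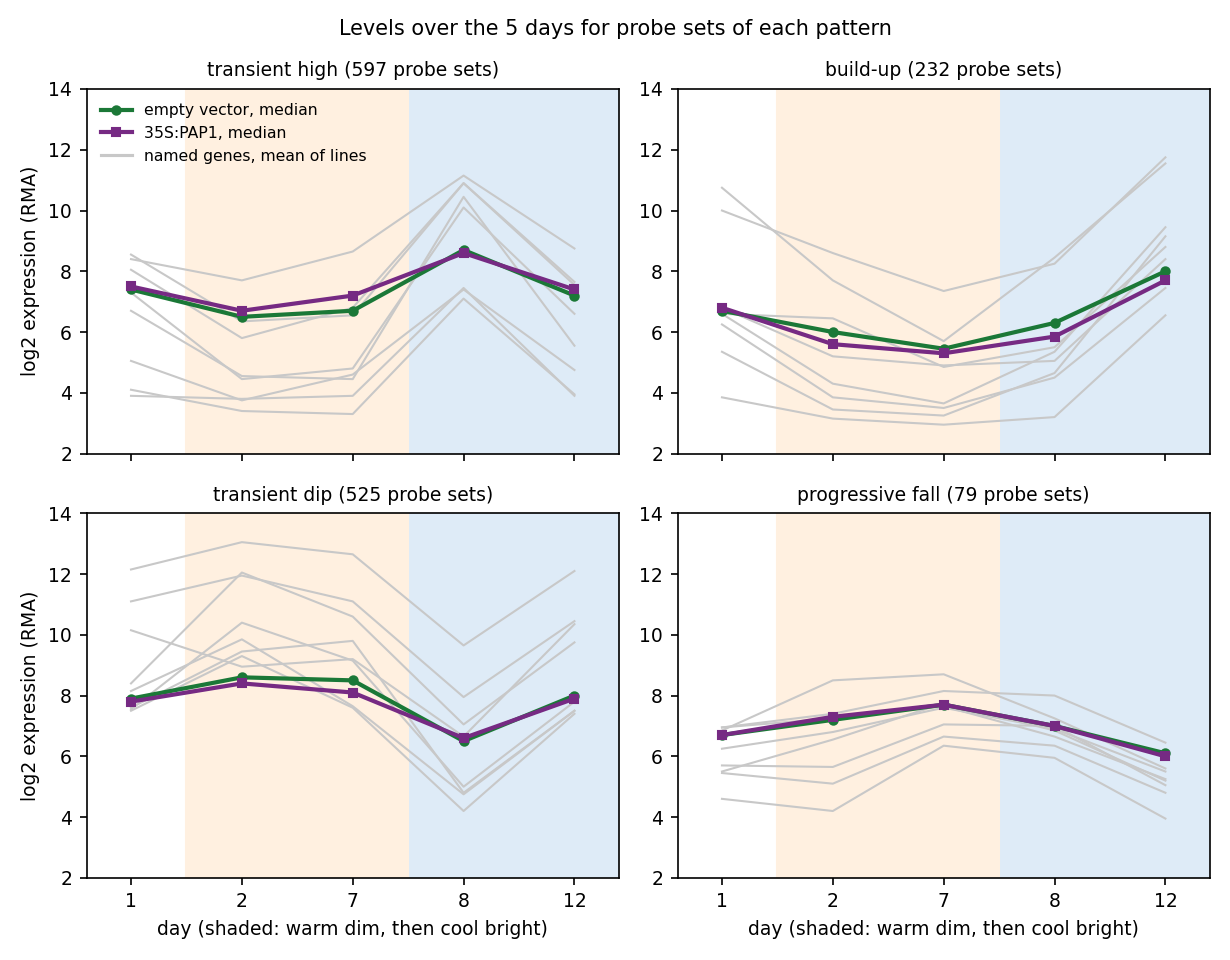
Log2 expression is plotted against day for the 4 classes of called probe sets, with the median of each class in the empty vector (circles) and 35S:PAP1 (squares) lines and, in grey, the mean of both lines for up to 8 named genes of the class. The medians of the transiently high class peak on day 8 at 8.7 and 8.6, those of the transiently low class reach their lowest there, and those of the class that built up are highest on day 12 at 8.0 and 7.7. The class rules set the direction of the steps from day 7 to day 8 and from day 8 to day 12.

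Genes of the flavonoid and flavonol list, which includes the light-signalling factor HYH, fell from a day 8 peak in both lines. All 4 measured members of this list were called lower, against 9.44% of all probe sets, with a median change of -2.7, and all 4 were transiently high. The list was written with earlier results of these data known, only 4 of its 25 planned members had a probe set naming them alone, and the median over all 13350 genes was -0.05. CHIL, a chalcone isomerase-like protein that assists the first enzyme of the pathway, stood at 4.8, 10.4 and 6.0 on days 7, 8 and 12 in the empty vector line. In 35S:PAP1 it stood at 8.8, 11.4 and 9.1, so that its day 8 peak was the highest level in each line but the line's own starting level differed. CHIL fell by 3.35 ± 0.62 log2 units (10.2-fold, adjusted p = 0.00898). UGT78D1, which adds rhamnose to flavonols, was measured at 6.5, 8.9 and 6.7 in the empty vector line and at 7.7, 8.8 and 7.1 in 35S:PAP1 on the same days. It fell by 1.95 ± 0.27, to a level below its day 1 values of 7.5 and 7.9. AT1G06000, a list member that the gene table gives no name, went from 6.0 to 11 and back to 7.8 in the empty vector line and from 7.1 to 10.8 and 7.5 in 35S:PAP1. Its change was -3.25 ± 0.32 (9.51-fold, adjusted p = 0.00101).

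The light-signalling factor HYH, a bZIP protein and close relative of HY5, took the same course. Its levels on days 7, 8 and 12 were 3.4, 7.2 and 5.0 in the empty vector line and 3.6, 6.4 and 4.3 in 35S:PAP1. It fell by 2.15 ± 0.28 (4.44-fold, adjusted p = 0.00222) and ended close to its day 1 level of 4.4 in both lines. Of the 4 calls in the flavonoid list, HYH among them, 3 remained whichever 1 array was left out. CHIL was lost without either empty vector array or the 35S:PAP1 array of day 12, with adjusted p-values up to 0.101. Over the fits without 1 array its change lay between -4.5, without the 35S:PAP1 array of day 8, and -2.2, without the empty vector array of day 8. The call was also lost with no term for line (adjusted p = 0.218) and without the day 2 and day 7 arrays of 35S:PAP1 (0.0757).

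The late anthocyanin genes, which make and decorate the red pigment, did not pass the test. Its spread comes from how the gap between the 2 lines varied over all days. That spread holds any transgene effect that varies by day, so a missing call does not show that a gene held steady. All 5 measured members were lower on day 12, by a median of 1.1 units, and 0 were called. UGT78D2, which adds glucose to anthocyanidins and flavonols, stood at 6.1, 10 and 7.3 in the empty vector line on days 7, 8 and 12, and at 10.8, 11.4 and 9.9 in 35S:PAP1. Its change was -2.1 ± 0.63 (adjusted p = 0.0542). AT5MAT, an anthocyanin malonyltransferase, stood at 3.5, 7.0 and 4.8 in the empty vector line and at 9.6, 10.2 and 8.8 in 35S:PAP1, a change of -1.8 ± 0.64 (adjusted p = 0.0916). DFR, the dihydroflavonol reductase that commits the pathway to anthocyanins, was at 3.8, 8.0 and 7.1 in the empty vector line and at 12.4, 12.6 and 11.6 in 35S:PAP1, a change of -0.95 ± 0.95. Between days 8 and 12 DFR changed alike in the empty vector and 35S:PAP1 lines, by -0.9 and -1.0. Its wide error comes from how their gap varied over the days. On day 12 DFR stood 2.5 units above its day 1 level of 4.6 in the empty vector line, whereas in the transgenic line day 12 minus day 1 was -0.8. With each array centred on its median, 1 of the 5 late genes was called.

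**Figure D3:**
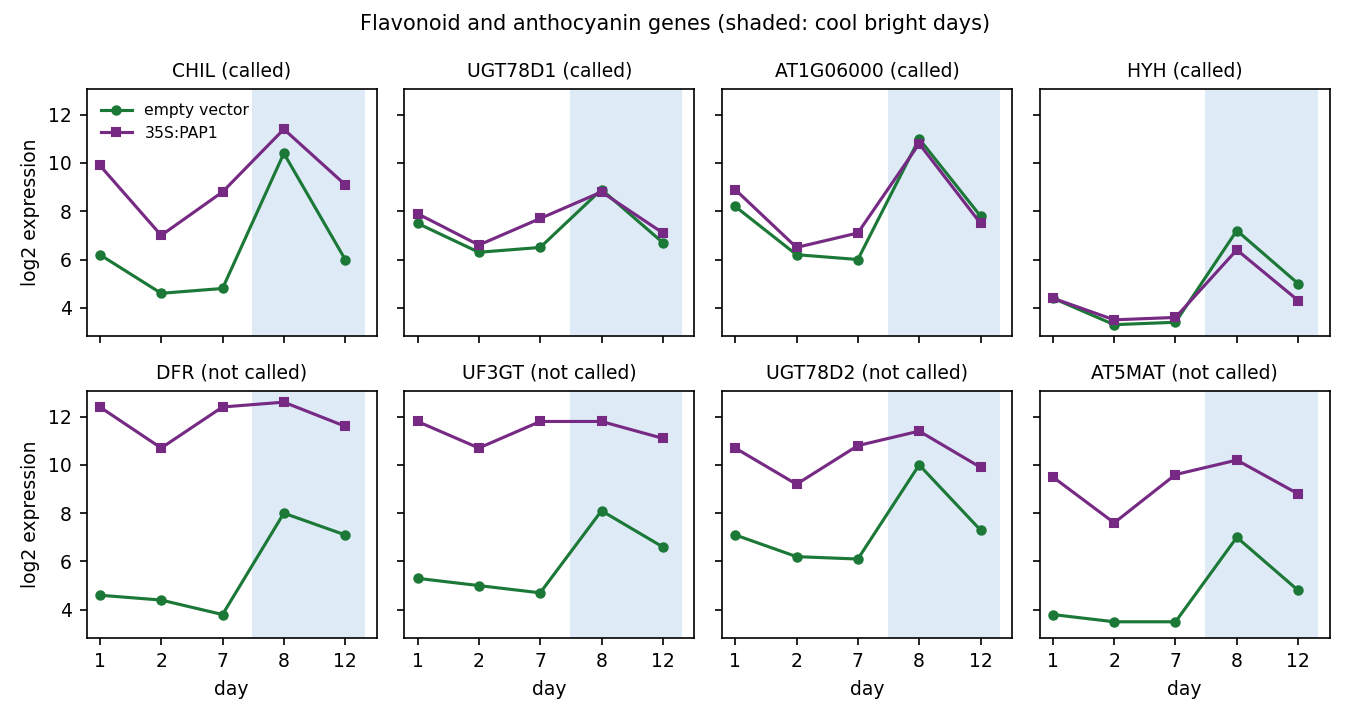
Log2 expression is plotted against day for 4 genes of the flavonoid list (upper row, all called) and 4 late anthocyanin genes (lower row, none called), with circles for empty vector and squares for 35S:PAP1 and the cool bright days shaded. The called genes peak on day 8 in both lines, and the late genes stay between 7.6 and 12.6 on all days in 35S:PAP1 while they peak on day 8 in the empty vector line.

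Other enzymes that attach sugars to small molecules moved in both directions. Among 47 UGT glycosyltransferases, a family chosen after values were seen, 6 were called lower and 10 higher, with a median change of 0.00. The shares over all probe sets were 9.44% and 10.7%. UGT84A1, which makes glucose esters of hydroxycinnamic acids, was at 3.7, 7.8 and 3.8 on days 7, 8 and 12 in the empty vector line and at 4.1, 7.1 and 4.0 in 35S:PAP1. It was close to the limit for dim values on every day but day 8, and fell at least 10.2-fold (log2 change -3.55 ± 0.25, adjusted p = 0.000372). UGT78D3, which adds arabinose to flavonols, fell at least 2.83-fold from 5.8 and 5.4 on day 8 to 3.2 and 3.3. UGT73C1 fell at least 3.86-fold from 6.1 and 6.0. In the other direction UGT73D1 went from 3.7 and 3.5 to 5.9 and 6.1 in the empty vector and 35S:PAP1 lines, at least 3.73-fold higher. Of the calls in this family, 5 of the 6 lower and 2 of the 10 higher remained whichever 1 array was left out.

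The largest fall of a gene with one name of its own in the gene table was that of MSRB6, a methionine sulfoxide reductase that repairs oxidised methionine. It was measured at 8.8, 9.9 and 6.0 in the empty vector line on days 7, 8 and 12 and at 8.6, 9.6 and 6.1 in 35S:PAP1. The day 12 level was below that of day 1 (8.0 and 8.4) in both lines, and the fall from day 8 was 3.7 ± 0.18 (13.0-fold, adjusted p = 0.000143). Of its relatives, MSRB9 rose by 2.15 ± 0.32, a call lost without the empty vector array of day 12 (adjusted p = 0.0598), and MSRB3 and MSRB5 changed by 0.35 and 0.45 and were not called. SAPX, an ascorbate peroxidase that removes hydrogen peroxide in the chloroplast stroma, fell by 1.2 ± 0.18 from 10.3 and 10.4 to 9.3 and 9.0, and was lost at an adjusted p of 0.05 without the 35S:PAP1 array of day 12. Its list, photoprotection and antioxidants, had 3 measured members, of which VTC4 (0.20) and TAPX (0.35) were not called.

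Among cold-regulated genes COR15A fell from its day 8 level and the dehydrins were not called. Of 5 measured members 1 was called, lower, and the median change was -0.35. COR15A, which protects chloroplast membranes in freezing, stood at 8.7, 13.3 and 11.4 on days 7, 8 and 12 in the empty vector line and at 9.9, 13.5 and 11.7 in 35S:PAP1. It fell by 1.85 ± 0.49 (3.61-fold, adjusted p = 0.0337), and on day 12 it was still above its day 1 levels of 9.7 and 8.9. The call was lost without either array of day 1, 8 or 12, with an adjusted p of up to 0.233 and a change between -2.06 and -1.64. Its neighbour in function COR15B changed by the same -1.85 with a larger error of 0.60 and was not called (adjusted p = 0.0693). The dehydrin LTI30 stood at 10.8 on days 8 and 12 in the empty vector line and at 10.9 and 10.2 in 35S:PAP1, against 7.1 and 6.9 on day 1. COR47, another dehydrin, changed by -0.35, and COR27 by 0.10, and neither was called.

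Some sugar carriers of the SWEET family fell. Of 14 members, a family chosen after values were seen, 4 were called lower and 0 higher, against 9.44% and 10.7% of all probe sets, with a median of -0.28. SWEET13, a sucrose carrier of the leaf, was measured at 5.1, 8.9 and 6.5 on days 7, 8 and 12 in the empty vector line and at 5.6, 8.0 and 6.1 in 35S:PAP1. It fell by 2.15 ± 0.30 (4.44-fold, adjusted p = 0.00285) and stayed above its day 1 levels of 5.0 and 5.1. SWEET1, a glucose carrier, fell by 1.35 ± 0.15 from 8.9 and 8.3 to 7.4 and 7.1. The vacuolar carriers SWEET2 and SWEET17 fell by 0.95 and 0.80 (adjusted p up to 0.268 and 0.276), and only SWEET13 and SWEET1 kept their calls whichever 1 array was left out. TMT2, a sugar importer of the vacuole named after its values were seen, fell by 1.4 ± 0.17 from 9.5 and 9.3 to 7.9 and 8.1. Of 6 starch and sugar genes 3 were called, all lower (SBE2.2, SWEET17 and APL4), with a median of -0.40, and each of these calls was lost on leaving out a single array (adjusted p of SBE2.2 up to 0.171 and of APL4 up to 0.224).

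Most genes that loosen the cell wall were not called. Of 27 measured members, 5 were called lower and 0 higher, against 9.44% and 10.7% of all probe sets, and the median was 0.00. EXPA16, an alpha-expansin, stood at 4.3, 6.5 and 4.3 on days 7, 8 and 12 in the empty vector line and at 4.1, 6.6 and 3.9 in 35S:PAP1, and fell at least 5.1-fold (log2 change -2.45 ± 0.15, adjusted p = 0.000297). EXPB3, a beta-expansin, stood at 6.1, 9.3 and 6.7 and at 6.4, 8.4 and 6.2 in the same order, and fell by 2.4 ± 0.29 (5.28-fold). Both were transiently high and kept their calls whichever 1 array was left out. XTH32, EXPA15 and EXPA4 fell by 1.5, 1.35 and 1.15, calls that were lost on leaving out single arrays of day 8 or 12 (for EXPA4 also of day 1), with adjusted p-values up to 0.0749, 0.143 and 0.309. EXLA1 and EXPA8 changed by 1.3 and 1.0 and were not called. Among 10 alpha-expansins 3 were called lower (median -0.18). Among 15 endoglucanases of the GH9 family 3 were called lower and 0 higher (median -0.15), the largest fall being that of GH9B8 by 1.65, lost at an adjusted p of up to 0.065. Of 9 wall synthesis genes 1 was called, CSLC04, higher by 1.25 (adjusted p up to 0.274), with a median of 0.20.

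Most measured subunits of the RNA polymerases that transcribe ribosomal and transfer RNA fell. Of 4 subunits of polymerases I and III, grouped after values were seen, 3 were called lower (median -1.48) and 1, NRPA1, was transiently high. Of 6 subunits of polymerase II, the messenger RNA enzyme, 0 were called (median -0.18). The share called lower over all probe sets was 9.44%. NRPA1, the largest subunit of polymerase I, was measured at 6.5, 8.4 and 6.3 on days 7, 8 and 12 in the empty vector line and at 6.8, 7.9 and 6.2 in 35S:PAP1. It fell by 1.9 ± 0.20 (3.73-fold, adjusted p = 0.00112). NRPA2 fell by 1.65 ± 0.19 from 8.9 and 8.6 to 7.0 and 7.2, and NRPC2 of polymerase III by 1.3 ± 0.18 from 7.2 and 7.0 to 5.8 in both lines. NRPC1 changed by -0.60 and was not called. The 3 calls remained whichever 1 array was left out.

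Of the ribosome biogenesis list 2 members were measured and both fell, NRPA2 and AT5G14520. The latter is the Arabidopsis gene of Pescadillo, a nucleolar factor for the large ribosomal subunit, and fell by 1.5 ± 0.15 from 10.4 and 10.2 to 8.7 and 8.9. A further 4 genes of the nucleolus or of RNA processing were picked because they fell, so they stand for no group. YAO fell by 1.7 ± 0.29, IMP4 by 1.25 ± 0.20, the RNA helicase PRH75 by 1.05 ± 0.14 and the exosome subunit RRP41 by 1.0 ± 0.18. Without the empty vector array of day 12 the calls of YAO, IMP4 and RRP41 were lost (adjusted p up to 0.0758, 0.0634 and 0.0775). PGY1, the only ribosomal protein of the cytosol that was measured, fell by 0.75 ± 0.15 (adjusted p up to 0.105). Of 15 nuclear factors that edit or splice RNA in the organelles, 7 were called lower and 0 higher (median -0.55), of which OTP81, with a fall of 1.5 ± 0.16 from 7.6 in both lines to 6.0 and 6.2, and CRR28, with a fall of 1.1 ± 0.14, kept their calls whichever 1 array was left out. Over all probe sets 9.44% were called lower and 10.7% higher.

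Some genes of the mitochondrial genome were lower on day 12 than on days 7 and 8. Whether their probe sets tell these transcripts from similar sequences of the nuclear genome was not tested. Of 15 measured, a group chosen after values were seen, 7 were called lower and 0 higher (median -0.60), all 15 changes were below 0, and 4 of the 7 met the rule for falling throughout, which lets day 8 equal day 7. Over all probe sets 9.44% were called lower and 10.7% higher. The gene ccb452, for the biogenesis of cytochrome c, stood at 7.1, 7.0 and 5.1 on days 7, 8 and 12 in the empty vector line and at 7.0, 7.0 and 5.0 in 35S:PAP1. It fell by 1.95 ± 0.16 from day 8 (3.86-fold, adjusted p = 0.000536) and ended below its day 1 levels of 5.5 and 5.9. The complex I gene nad1 stood at 6.9, 6.5 and 4.9 and at 6.4, 6.2 and 4.7 in the same order, a fall of 1.55 ± 0.20. The cytochrome oxidase gene cox2 differed in being higher on day 8 than on day 7, at 6.5, 7.4 and 5.2 in the empty vector line and at 6.4, 7.6 and 5.3 in 35S:PAP1, and fell by 2.25 ± 0.17 (4.76-fold, adjusted p = 0.000467).

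Other mitochondrial genes were not called, among them nad2, nad4 and nad7, which changed by -0.10, -0.05 and -0.05. Of the 7 calls 5 remained whichever 1 array was left out, while cox1 (-1.1) and ccb206 (-1.25) lost theirs at adjusted p-values of up to 0.161 and 0.0549. Of 69 genes of the plastid genome 1 was called higher (rpl32, by 0.65) and 2 lower (rbcL, by 0.70, and rps3, by 0.50), with a median of 0.15, and these 3 calls were lost on leaving out single arrays (adjusted p up to 0.194, 0.21 and 0.19). Among the 15 of these that encode ribosomal proteins 1 was called in each direction (median -0.10). The shares over all probe sets were 10.7% higher and 9.44% lower.

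Some nuclear genes of the photosystems and antenna rose. Of 30 measured members of the photosystem list 6 were called higher (median 0.35), against 10.7% of all probe sets, and 0 lower, against 9.44%. All 6 were among the 10 nuclear genes (median 0.60), 3 of them were transiently low and 1 built up, and 0 of the 20 plastid genes were called (median 0.10). LHCB4.2, a minor antenna protein of photosystem II, was measured at 12.9, 9.6 and 12 on days 7, 8 and 12 in the empty vector line and at 12.4, 9.7 and 12.2 in 35S:PAP1. It rose by 2.45 ± 0.20 (5.46-fold, adjusted p = 0.000595) and came back to its day 1 levels of 12.4 and 11.9. LHCB4.1 dipped less, from 13.3 to 12.1 and back to 13.2 and from 13.4 to 12.3 and back to 13.3, a rise of 1.05 ± 0.12. LHCB4.3 instead was lowest on day 7, at 7.7 and 6.7, and climbed to 8.9 and 9.7 on day 8 and to 10.5 and 10.9 on day 12. Its rise of 1.4 ± 0.41 had an adjusted p of 0.0488. The call was lost without 7 of the 10 arrays in turn, which make fewer separate fits (adjusted p up to 0.344). PSAN, PSAE-1 and PSBW rose by 0.90, 0.65 and 0.55 and also lost their calls without single arrays of day 8 or 12, at adjusted p-values of up to 0.0911, 0.15 and 0.256. PORB, which makes the precursor of chlorophyll in light, rose by 1.3 ± 0.21 from 10.1 and 10.3 to 11.4 and 11.6 (adjusted p up to 0.0686). CHLM, of the same pathway and the other measured member of its list, changed by 0.60 and was not called.

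The measured autophagy genes rose. All 10 measured ATG genes, 9 of the ATG8 family and ATG3, were called higher on day 12, against 10.7% of all probe sets, with a median of 1.23, and 4 of the 10 were transiently low. Their group was formed after values were seen. ATG8E was measured at 6.8, 3.9 and 6.8 on days 7, 8 and 12 in the empty vector line and at 5.4, 3.8 and 6.3 in 35S:PAP1, so that both lines were at the limit for dim values on day 8. It rose at least 5.46-fold (log2 change 2.7 ± 0.33, adjusted p = 0.00181). ATG8F stood at 10.1, 7.8 and 9.8 and at 9.3, 7.9 and 9.8 in the same order, a rise of 1.95 ± 0.23. APG8A, the ATG8A gene, went from 6.5 and 6.7 to 8.8 and 8.5, a rise of 2.05 ± 0.16 that took it past its day 1 levels of 7.8 and 7.9. The 3 smallest rises were those of ATG3 (0.60), ATG8B (0.75) and ATG8G (0.85). Whichever 1 array was left out, 6 calls remained. ATG3, ATG8B and ATG8G were lost without any 1 array of day 8 or 12 (adjusted p up to 0.149, 0.155 and 0.175) and ATG8H without the empty vector array of day 12 (adjusted p = 0.0638).

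Genes known to rise when leaf sugar runs low also rose in most cases. Of 15 measured members of the sugar starvation list 11 were called higher and 0 lower (median 1.0), against 10.7% and 9.44% of all probe sets. Among the 11 called, 5 are also ATG8 genes of the autophagy group. The list was written with earlier results of these data known, and 15 of its 29 planned members were measured. AKINBETA1, a subunit of the energy-sensing kinase SnRK1, stood at 8.8, 5.1 and 7.1 on days 7, 8 and 12 in the empty vector line and at 7.1, 4.9 and 6.9 in 35S:PAP1, and rose by 2.0 ± 0.38 (4.0-fold, adjusted p = 0.0093). MCCA, which takes part in the breakdown of leucine, stood at 8.2, 5.1 and 6.6 and at 6.7, 5.4 and 6.7, and rose by 1.4 ± 0.38. ETFQO and ETFBETA, which pass electrons from amino acid breakdown to the respiratory chain, rose by 0.75 and 0.65, and AT4G33150, the lysine-degrading enzyme LKR/SDH, by 1.25 (adjusted p up to 0.246, 0.116 and 0.287). PPDK, which makes phosphoenolpyruvate from pyruvate, differed in rising past every earlier day, from 8.7 and 8.6 to 9.8 and 9.5 (1.0 ± 0.15). Of the 11 calls 4 remained whichever 1 array was left out. Those of AKINBETA1 and MCCA were lost without any 1 array of day 8 or 12, with adjusted p-values up to 0.105 and 0.288. IVD, MCCB, D2HGDH and EXO changed by 0.30, 0.70, 0.60 and 1.0 and were not called.

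Most measured genes of the endoplasmic reticulum and of vesicle sorting rose as well. Of 9 genes for protein folding and degradation in the endoplasmic reticulum, grouped after values were seen, 6 were called higher and 0 lower (median 1.35). The shares over all probe sets were 10.7% higher and 9.44% lower. ATERDJ3B, a co-chaperone of the lumen, was measured at 8.5, 8.2 and 10.2 on days 7, 8 and 12 in the empty vector line and at 9.1, 8.0 and 10.2 in 35S:PAP1. It rose by 2.1 ± 0.20 (4.29-fold, adjusted p = 0.000864), past its day 1 levels of 9.3 and 9.5. The calreticulin gene CRT1b stood at 8.7, 9.3 and 10.8 and at 9.3, 9.2 and 10.9, a rise of 1.6 ± 0.20 that also ended above day 1 (9.9 and 10.2). DER1 and DER2.1, which help export misfolded proteins, rose by 1.55 and 1.45, and 5 of the 6 calls remained whichever 1 array was left out, DER2.1 being the exception (adjusted p up to 0.113). Of 12 ESCRT and VPS genes, which sort membrane proteins to the vacuole, 7 were called higher and 1 lower (median 0.73), and 3 of the calls higher remained whichever 1 array was left out. Among them SNF7.1 rose by 1.5 ± 0.16 from 6.5 and 6.8 to 8.3 and 8.0.

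**Figure D4:**
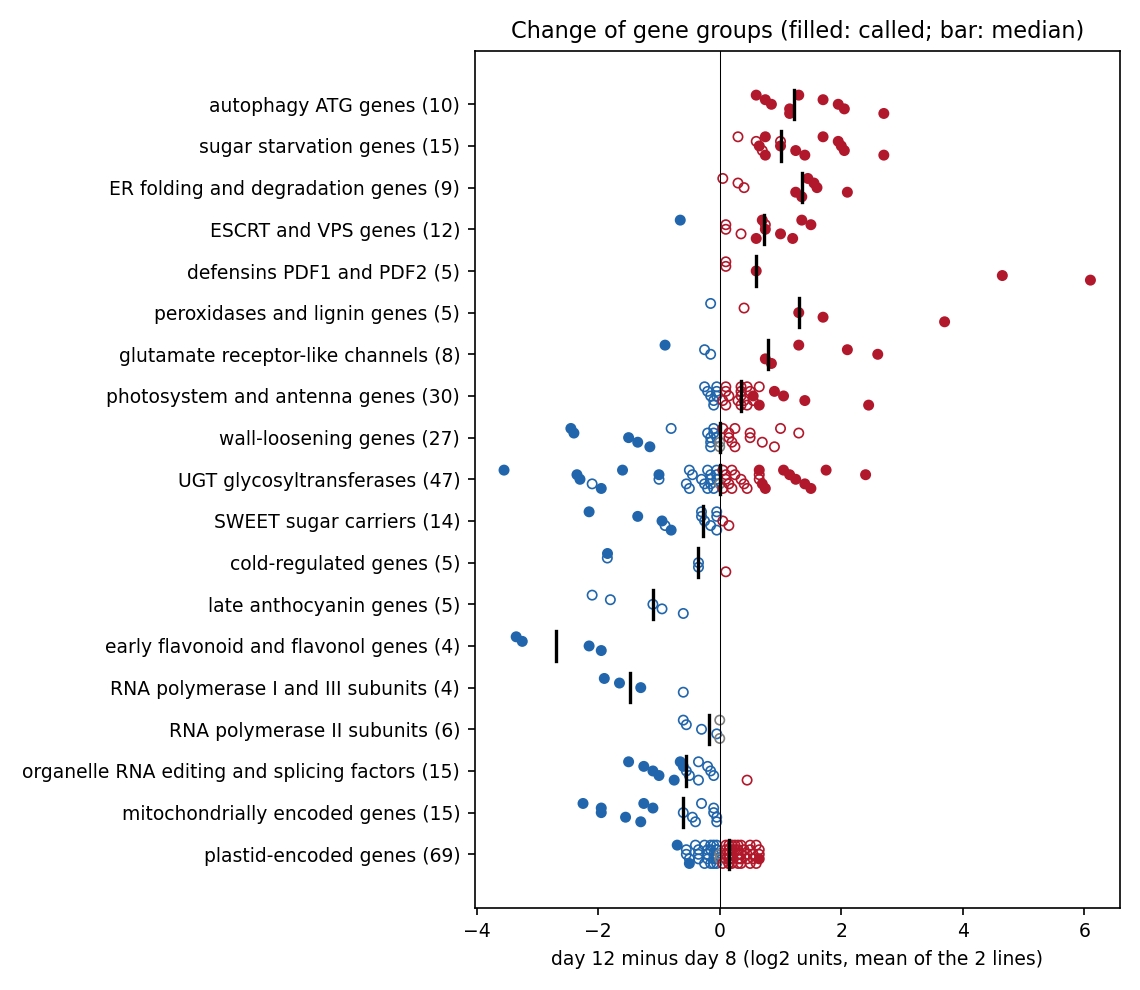
Each point is a measured gene of the group named at the left (number of genes in brackets), placed by its day 12 minus day 8 change in log2 units averaged over both lines. Filled points were called, black bars mark group medians, and all 10 autophagy genes lie to the right of 0 and all 4 genes of the flavonoid list to the left of it.

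A pair of defensins gave large rises. PDF1.2, a plant defensin that responds to jasmonate and ethylene, was measured at 11.2, 7.1, 5.7 and 11.2 on days 1, 7, 8 and 12 in the empty vector line and at 10, 5.8, 4.6 and 11.3 in 35S:PAP1. It was lower on day 8 than on day 7 in both lines, and by day 12 it was at or above day 1. The rise from day 8 was 6.1 ± 0.52 log2 units (68.6-fold, adjusted p = 0.000648). PDF1.2b, a close copy, went from 5.5 and 4.5 to 9.8 and 9.5, a rise of 4.65 ± 0.42 (25.1-fold). Whether the probe sets of these copies tell their transcripts apart was not tested. Of 5 defensins, a family chosen after values were seen, 3 were called higher, but PDF1.4 (0.60) ended at or under the limit for dim values and lost its call on leaving out any 1 of the 10 arrays (adjusted p up to 0.308). Of 9 jasmonate and wound genes, 3 of which are these defensins, 4 were called higher and 1 lower (median 0.55). The shares over all probe sets were 10.7% higher and 9.44% lower. The call lower was JMT, which makes methyl jasmonate, by 1.35, lost without 3 of the arrays in turn (adjusted p up to 0.175).

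Some genes that built up are known for defence or phenolic metabolism. CHI, annotated as a chitinase, was measured at 7.7, 8.8 and 12 on days 7, 8 and 12 in the empty vector line and at 7.0, 7.7 and 11.5 in 35S:PAP1, against 9.9 and 10.1 on day 1. It rose by 3.5 ± 0.27 from day 8 (11.3-fold, adjusted p = 0.000478). AT3G13610, listed under the synonym F6'H1 and known as the enzyme that opens the route to the coumarin scopoletin, stood at 3.7, 6.5 and 9.8 and at 3.6, 4.2 and 9.1. Its rise of 4.1 ± 0.59 (17.1-fold, adjusted p = 0.00332) lost its call without the empty vector array of day 12 (adjusted p = 0.0523) and without those of 35S:PAP1 on days 2 and 7 (0.0614), and its change lay between 3.03 and 5.18 over the arrays left out. SBT3.3 and SBT3.5, subtilisin-like proteases, rose by 3.0 ± 0.25 and 2.7 ± 0.36. Only 1 of these 2 met the rule for building up, and the other 6 measured subtilases were not called (median of all 8, -0.10). SBT3.3 went from 5.5 and 4.7 to 8.7 and 7.5, above every earlier day.

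The invertase-like gene cwINV6, named after its values were seen, was at 4.7, 4.9 and 7.8 and at 4.6, 4.6 and 7.3 on days 7, 8 and 12, a rise of 2.8 ± 0.17 (6.96-fold, adjusted p = 0.000297). BGLU25 rose by 2.5 ± 0.17 from 7.5 and 7.7 to 10.1 in both lines. Of 20 beta-glucosidases 4 were called higher and 1 lower (median 0.18), and of 19 CYP71B cytochromes 5 were called higher and 0 lower (median 0.10), against 10.7% higher and 9.44% lower of all probe sets. CYP71B23 rose by 2.4 ± 0.22, from 6.6 and 6.2 to 8.8 in both lines. These families were chosen after values were seen, and most of their members were not called.

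Some enzymes of phenylpropanoid side branches and the cell wall rose too. Of 5 peroxidase and lignin genes 3 were called higher and 0 lower (median 1.3), against 10.7% and 9.44% of all probe sets. CCOAMT, a caffeoyl-CoA methyltransferase gene, was measured at 6.6, 4.6 and 8.2 on days 7, 8 and 12 in the empty vector line and at 5.6, 3.8 and 7.6 in 35S:PAP1, and rose at least 11.7-fold (log2 change 3.7 ± 0.16, adjusted p = 8.44e-05). Both lines ended above their day 1 levels of 6.8 and 6.1. The secreted peroxidases Prx37 and PRX52 rose at least 3.14-fold and by 1.3 ± 0.32, and PRX52 lost its call without any 1 array of day 2, 8 or 12 (adjusted p up to 0.205). HCT and PRXR1 changed by -0.15 and 0.40 and were not called.

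Among glutamate receptor-like channels, which let calcium into cells, most of those called were higher on day 12. Of 8 measured, a family chosen after values were seen, 5 were called higher and 1 lower (median 0.80). The shares over all probe sets were 10.7% and 9.44%. GLR1.4 went from 5.0 and 4.7 on day 8 to 7.2 and 6.7 on day 12, a rise of 2.1 ± 0.20 (4.29-fold, adjusted p = 0.000832) that alone of the family kept its call whichever 1 array was left out. GLR2.8 rose by 2.6 ± 0.37 from 5.4 and 5.0 to 8.4 and 7.2, with an adjusted p of up to 0.0524 without single empty vector arrays. GLR3.5 fell by 0.90 (adjusted p up to 0.282). Of 7 calmodulin-like genes 2 were called higher (median 0.50), with CML41 rising by 1.9 ± 0.20 from 6.4 and 5.2 to 8.2 and 7.2, a call lost with no term for line (adjusted p = 0.0814). Of 9 U-box ubiquitin ligases PUB24 and PUB43 were called higher and 0 lower (median -0.10), with adjusted p-values up to 0.215 and 0.142. Beside the 10.7% called higher over all probe sets, 2 calls among so few members say little about the calmodulin-like or the U-box family. Both families were also chosen after values were seen.

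**Figure D5:**
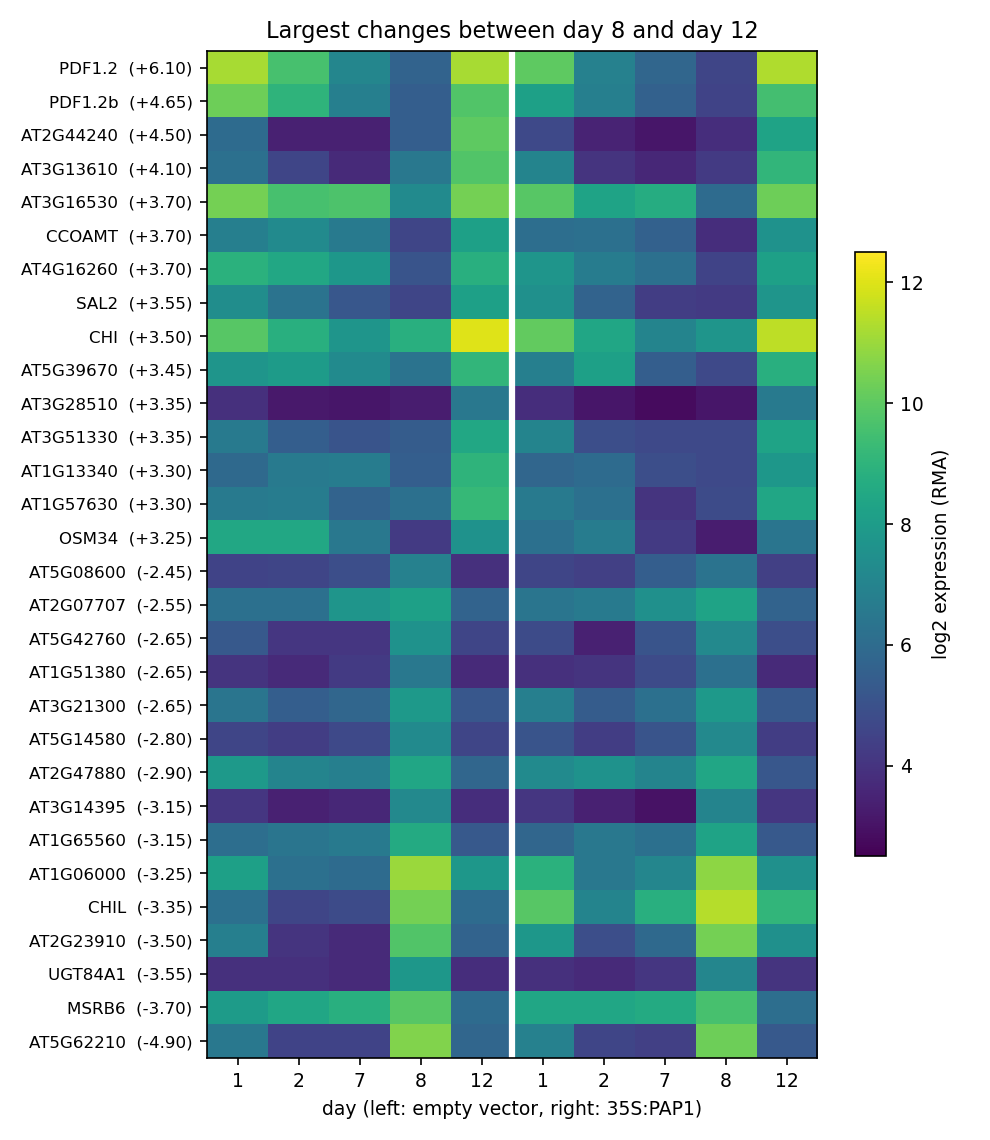
Colour gives the log2 expression of the 15 genes with the largest rise (top) and the 15 with the largest fall (bottom) on each of the 10 arrays, with days 1, 2, 7, 8 and 12 of the empty vector line at the left and of 35S:PAP1 at the right. The number beside each gene is its day 12 minus day 8 change in log2 units, from 6.1 for PDF1.2 to -4.9 for AT5G62210, and the lower block is brightest on day 8.

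Many of the largest changes belong to loci for which the gene table gives no name. AT5G62210 fell the most of all named loci, from 10.6 and 10.3 on day 8 to 5.8 and 5.3 on day 12, after 4.5 and 4.4 on day 7. Its change was -4.9 ± 0.21 (29.9-fold, adjusted p = 8.44e-05). AT2G23910 was likewise transiently high, at 3.7, 9.8 and 5.7 in the empty vector line and at 5.9, 10.4 and 7.5 in 35S:PAP1 (-3.5 ± 0.36). AT2G44240 built up from 3.4 through 5.5 to 10 in the empty vector line and from 3.1 through 3.8 to 8.3 in 35S:PAP1 on days 7, 8 and 12, at least 20.4-fold higher on day 12 than on day 8. AT3G28510 was under the limit for dim values in both lines until day 12, when it reached 6.5 and 6.6, at least 5.46-fold higher. AT5G55450 built up from 5.5 through 9.2 to 11.7 and from 5.9 through 7.7 to 11.4, a rise of 3.1 ± 0.39.

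Of the other genes with a name among the largest rises, SAL2, a relative of the phosphatase SAL1, went from 4.6 and 4.2 to 8.2 and 7.7 (3.55 ± 0.22). OSM34, an osmotin-like protein, went from 4.2 and 3.3 to 7.6 and 6.4, at least 7.21-fold higher, a call lost with no term for line (adjusted p = 0.0531). Of 5 senescence genes 2 were called higher and 0 lower (median 1.1), against 10.7% and 9.44% of all probe sets. YLS5 rose by 2.05 ± 0.16 and SAG101, also the only salicylate list member measured, by 1.6 ± 0.31. SAG101 lost its call without any 1 array of day 8 or 12 (adjusted p up to 0.124). The senescence regulators WRKY53 and WRKY6 changed by 1.1 and 0.35 and were not called.

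Several groups gave few or no calls. The 4 cold and stress transcription factors (median 0.18), 4 Calvin cycle genes (median -0.10) and 5 cell cycle genes (median -0.30) had 0 calls each in the limma fit, as had HIS1-3 (-0.40) and LEA4-5 (0.30) of the drought list. GI, the only clock gene measured, changed by -0.45 ± 0.15 (adjusted p = 0.0813). Of 16 auxin and growth genes GH3.3, which conjugates auxin, was called, at least 3.36-fold higher, and lost without single empty vector arrays (adjusted p up to 0.0896); the median was 0.03. Of 14 glutathione transferases GSTU18 (1.0) and GSTU27 (0.50) were called higher (median 0.08), with adjusted p-values up to 0.108 and 0.251. Of 4 heat shock genes AT5G48570, the co-chaperone FKBP65, was called, at least 2.3-fold higher from a day 8 level below the limit for dim values. Its call was lost without 8 of the 10 arrays in turn, which make fewer separate fits (adjusted p up to 0.273). The list's median was 0.68.

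Few genes moved in opposite directions in the lines, and none of these differences was called. Of 13350 genes, 80 moved by at least 0.5 units up in one line and down in the other. AT5G01870 went from 8.3 to 7.2 in the empty vector line and from 4.5 to 7.1 in 35S:PAP1 between days 8 and 12. AT1G47400 went from 7.2 to 6.1 and from 5.5 to 7.6. Neither had a name in the gene table, and their lines differed in change by 3.7 ± 1.79 and 3.2 ± 0.88 (limma, adjusted p = 0.986 for both).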

How the data were processed

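Total RNA of pooled leaf tissue was biotin-labelled for Affymetrix chips, according to the labels' protocols. What was deposited is 1 log2 value for each probe set and array. The authors made it with RMA (as the submitters' processing notes name it), a method that corrects background, normalises between arrays and summarises probes. The RMA version is not given in the sources used here. Values carry 1 decimal, no detection call and no read depth, and the number of arrays limits the precision. Of 22810 probe sets, 64 controls were left out, 503 name several genes and 8730 have no entry in the table of probe genes. Of the probe sets naming 1 gene, 13436 matched the gene table by Entrez identifier.

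limma 3.58.1 in R 4.3.3 (lmFit, eBayes) fitted line and day on all 10 arrays (4 residual degrees of freedom). The probe set of highest mean stood for a gene. Probe sets naming 1 gene, called and moving alike in both lines, were named: the 15 largest per direction, 8 per class and, for the lines, 4 per direction of opposite movement. List members could be named too. The members and lists were chosen with earlier results of these data known. Of the 1127 genes in the 26 lists, 183 had a probe set of their own, and 23 families were added after values were seen. Day, given in the labels, pairs the arrays: after each line's mean was subtracted, the 2 arrays of a day correlated at 0.525, 0.774, 0.488, 0.843 and 0.752 on days 1, 2, 7, 8 and 12. The fit was tested on simulated data. Alternatives left out arrays, the line term or dim probe sets (mean under 5), centred the arrays, and changed the variance prior and the step. Promoter motifs and genome coordinates are not analysed here.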

Additional observations from a re-analysis of the deposited data

Results flagged for a closer look

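The 8 genes below moved in opposite directions in the lines between day 8 and day 12, by at least 0.5 log2 units in each, and are the 4 of largest size per direction among 80 such genes. In 24 of the 80 the 35S:PAP1 change was above the empty vector change, and in 56 below. The 35S:PAP1 change minus the empty vector change was -2.7 for AT4G27654, -2.5 for AT2G27500, -2.4 for AT5G38700 and -2.3 for AT3G62260. It was 1.9 for AT1G30760, 2.5 for AT1G20070, 3.2 for AT1G47400 and 3.7 for AT5G01870. AT5G01870 went from 8.3 to 7.2 in the empty vector line and from 4.5 to 7.1 in 35S:PAP1, so the lines met on day 12. AT4G27654 went from 9.5 to 10.4 and from 9.8 to 8.0, so the lines parted. Each line had 1 array per day, and the limma test of the difference gave an adjusted p of 0.986 for all 8. The first 4 ran together on the empty vector arrays, where all were lower on day 8 than on day 7 and higher again on day 12. AT1G30760 was at or under the limit for dim values on both 35S:PAP1 arrays.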

How the results depend on the processing

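Leaving out the day 2 and day 7 arrays of 35S:PAP1 also takes the empty vector arrays of those days out of the spread, since each is then alone on its day. That setting has 2 residual degrees of freedom and does not single out the 35S:PAP1 arrays. The count of 4586 called probe sets (2438 higher, 2148 lower) was 4423 with no replicate block (no line term), 4560 with centred arrays, 4235 among probe sets with a mean of at least 5, 4317 with a trended robust prior and 3263 when the day 2 and day 7 arrays of 35S:PAP1 were left out. Over the fits without 1 array it ranged from 1429 to 4723, from 891 to 2528 for those higher and from 538 to 2195 for those lower. It was 0 with the 4 arrays alone, where 1 residual degree of freedom is left, and 1698 (974 higher, 724 lower) when a change of at least 1 unit was also required in both lines. Centring moved the share of calls that were higher from 53.2% to 45.7%. With a step of 0.5 in place of 1 the classes held 1280 transiently high, 1184 transiently low and 141 falling probe sets, and with a step of 2 they held 89, 79 and 16, and 80 that built up. With centred arrays 828 were transiently high and 347 transiently low. Of the 48 calls named for their size, class or opposite movement 0 reversed under these alternatives, those of AT1G64360, CHIL and OSM34 were lost with no replicate block, and all 48 with the 4 arrays alone. Of the other called genes in the text, JMT, EXPA4, SWEET2, SWEET17, GSTU27, PDF1.4, ETFQO, AT4G33150, CSLC04, PRX52, AT5G48570 and CML41 were also lost with no replicate block (adjusted p from 0.0503 to 0.162). With centred arrays GSTU27, PSBW, PDF1.4, ETFQO, AT4G33150, CSLC04, LHCB4.3 and MCCA were lost, and with the trended robust prior COR15A, rps3, GSTU27, PDF1.4 and LHCB4.3. Without day 2 and day 7 of 35S:PAP1, losses beside CHIL, AT1G64360 and AT3G13610 were COR15A, JMT, ccb206, EXPA4, SWEET2, SWEET17, GLR3.5, rbcL, rpl32, APL4, GSTU18, GSTU27, PSAN, PSAE-1, PSBW, LHCB4.3, PORB, ATG3, ATG8B, PDF1.4, ETFQO, AT4G33150, PUB43, PRX52, SAG101, GH3.3 and MSRB9 (adjusted p from 0.0503 to 0.127). The count for the difference between lines stayed 0 under its alternatives, with 432 at an unadjusted p under 0.05 for the robust prior. With 1 array per line and day, changes near the dim limit of 4.1 and differences between the lines are the least certain.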

Other observations

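The 6 genes described here were picked after their values were seen and stand for no group, and redox genes also went the other way, as MSRB6 and SAPX fell. PRXIIF, the mitochondrial peroxiredoxin, stood at 8.7 and 8.6 on day 7 and at 8.9 and 9.1 on day 8 in the empty vector and 35S:PAP1 lines, and at 10.3 and 10.1 on day 12. It rose by 1.2 ± 0.15 log2 units (SE, 2.3-fold, limma adjusted p = 0.00183). The glutaredoxin GRXC2 was at 10.4 and 10.7 on day 7, and rose by 1.15 ± 0.18, from 10.7 and 10.6 on day 8 to 11.9 and 11.7, a call that was lost without the empty vector array of day 12 (adjusted p = 0.0581). In both genes the day 12 levels were above those of day 7 in each line. cICDH, the cytosolic isocitrate dehydrogenase, was lower on day 8 than on days 7 and 12 in both lines. Its levels were 11.3 and 11.2 on day 7, 10.1 and 9.9 on day 8, and 11.2 and 11.1 on day 12 (1.15 ± 0.12, adjusted p = 0.00123). ACLA-3, a subunit of ATP citrate lyase, took the same course, from 8.0 in both lines on day 8 to 9.3 and 9.1 (1.2 ± 0.16, adjusted p = 0.00262).

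Among genes that were high on day 8, LPR1, a ferroxidase known from the root response to low phosphate, stood at 4.6 and 5.0 on day 7, 7.8 and 8.2 on day 8, and 5.9 and 5.6 on day 12. It fell by 2.25 ± 0.19 (4.76-fold, adjusted p = 0.000651). SPPA, a light-induced protease of the chloroplast, went from 7.5 and 7.2 to 9.7 and 9.8 and then to 8.3 and 8.4, a change of -1.4 ± 0.17 (adjusted p = 0.00172). On day 12 both genes were still above their day 7 values in both lines.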
